A study of Sus scrofa with 20 samples.

Results

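The matrix metalloproteinases (MMPs), the ADAMTS proteases and their relatives, and the tissue inhibitors of metalloproteinases (TIMPs) were described in backfat and liver of Nanchukmacdon pigs. Members were taken by name, as every gene of the count table whose pig Ensembl symbol is MMP followed by a number, starts with ADAMTS, or is TIMP1, TIMP2, TIMP3 or TIMP4. This gave 46 of 31907 genes, of which 19 were MMPs (MMP23B among them), 19 ADAMTS proteases, 5 ADAMTS-like (ADAMTSL) proteins and 3 TIMPs. TIMP2 and MMP3 were not analysed here. Of the 46 members, 41 had enough counts to be tested.

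The RNA was taken from backfat and liver of 5 boars, which gave 5 libraries per tissue. All 10 libraries were labelled wild type (WT), of normal disease state and 22 months of age, and the labels name no treatment or other allele for either group. The authors' methods give a higher average age for the boars than these labels. The comparison asks which genes distinguish the 2 tissues. Libraries are named by tissue and boar number (65, 67, 69, 71 and 72), which stand in the names of the columns, and values are always given in this order.

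MMPs and ADAMTS proteases are zinc enzymes that cut proteins of the extracellular matrix. They are made with a prodomain that keeps the zinc site closed until furin-like proteases, plasmin or other MMPs remove it, and TIMPs close the site again by binding it. MMPs cut mainly collagens and gelatin, membrane-type MMPs do so at the cell surface, and ADAMTS proteases cut proteoglycans (the hyalectanases), the N-terminal propeptides of procollagens, or von Willebrand factor (VWF). ADAMTS-like proteins share the ancillary domains of ADAMTS proteases but have no protease domain. In adipose tissue these enzymes are known from the remodelling of the collagen network around adipocytes, and in liver from the turnover of matrix in fibrosis.

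The zinc site is what separates the enzymes from the other members, so it is shown for the genes on which the results turn. It was searched in the longest coding sequence of each member in RefSeq (Sscrofa11.1, the build of the count table) as a stretch of 33 bases that reads His-Glu, any 2 residues, His, any 5 residues, His. All 19 MMPs and all 19 ADAMTS proteases held it, against 0 of 5 ADAMTS-like proteins and 0 of 3 TIMPs. The stretches are printed 5′ to 3′ on the coding strand, and the capitals mark the 3 histidine codons.
MMP2: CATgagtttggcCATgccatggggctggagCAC
MMP14: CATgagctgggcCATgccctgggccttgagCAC
MMP7: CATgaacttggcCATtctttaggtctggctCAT
MMP27: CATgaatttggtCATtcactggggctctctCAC
ADAMTS2: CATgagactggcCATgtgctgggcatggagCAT
ADAMTS12: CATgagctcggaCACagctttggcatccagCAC
ADAMTS18: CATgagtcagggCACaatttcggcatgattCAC
ADAMTS13: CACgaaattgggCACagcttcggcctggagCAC
ADAMTS4: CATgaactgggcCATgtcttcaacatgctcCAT
ADAMTS15: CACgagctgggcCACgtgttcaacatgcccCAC

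The stretch of MMP2 lies at chr6:30073691-30073723, that of MMP14 at chr7:76179142-76179174, that of MMP7 at chr9:33217749-33217781 and that of MMP27 at chr9:33372008-33372040, all within a coding exon on the minus strand. The stretch lay within 1 exon in 19 of 19 MMPs and was split by an intron in each of the 19 ADAMTS genes. The residue 8 places into the stretch was a glycine in all 19 MMPs and in 13 ADAMTS proteases. It was an asparagine in 5 ADAMTS proteases (ADAMTS1, ADAMTS4, ADAMTS9, ADAMTS15 and ADAMTS20) and a serine in ADAMTS8. These 6 are all hyalectanases, and the other hyalectanase, ADAMTS5, has a glycine. MMP stretches shared a median of 24 of 33 bases with each other, ADAMTS stretches 21, and the 2 families 20. A part of these bases is alike in every pair because the search pattern fixes the His and Glu residues.

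Total counts were between 45157114 and 61772737 per backfat library and between 43820042 and 53768601 per liver library. Markers of adipocytes (6 of 6 called) and fibroblasts (6 of 6) were higher in backfat, and those of hepatocytes (7 of 7) and cholangiocytes (4 of 4 in the table) higher in liver, so each tissue carried the markers of its label. The library liver 67 stood apart from the other liver libraries. Mitochondrial genes took 44.5% of its counts, against 6.38 to 20.2% in the other 9 libraries, and its summed hepatocyte markers were 27992 CPM (counts scaled to a fixed library size), against 79660 to 101637 in the other 4. Its 3 skeletal muscle markers in the table summed to 158.6 CPM, against at most 1.22 in the other liver libraries and 9.86 to 399 in backfat. Among backfat libraries, backfat 69 had the highest summed hepatocyte markers, 574 CPM against 171 to 216 in the other 4. Values without liver 67 or backfat 69 are given where they change a call of a named gene or move a called fold by over 1.5 times. All values are from bulk tissue, in which fewer cells of a type and less RNA per cell cannot be told apart.

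Levels are CPM after TMM normalization, and levels of different genes are compared only per kilobase of exon (RPKM). The log2 fold changes are backfat minus liver, and a gene is called higher in a tissue where the adjusted p is 0.05 or lower and the log2 fold change reaches 2 in that direction (edgeR, Benjamini-Hochberg over all 16275 genes tested). Of the 41 members tested, 18 were called higher in backfat, 3 higher in liver, and 20 were not called. These are 43.9% and 7.32% of the members tested, where 11.1% and 11.2% of all genes tested were called higher in backfat and in liver. At the adjusted p alone, 25 members (61.0%) were higher in backfat and 6 (14.6%) in liver, against 28.0% and 27.0% of all genes tested. In 23 of the 41 members all 5 backfat libraries lay above all 5 liver libraries. In 5 of the 41 all liver libraries lay above all backfat libraries. These 2 patterns were seen in 22.9% and 19.7% of all genes tested. The median log2 fold change of the members was 1.69, and that of all genes tested was 0.0001. No test of the members as a list was made.

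**Figure D1:**
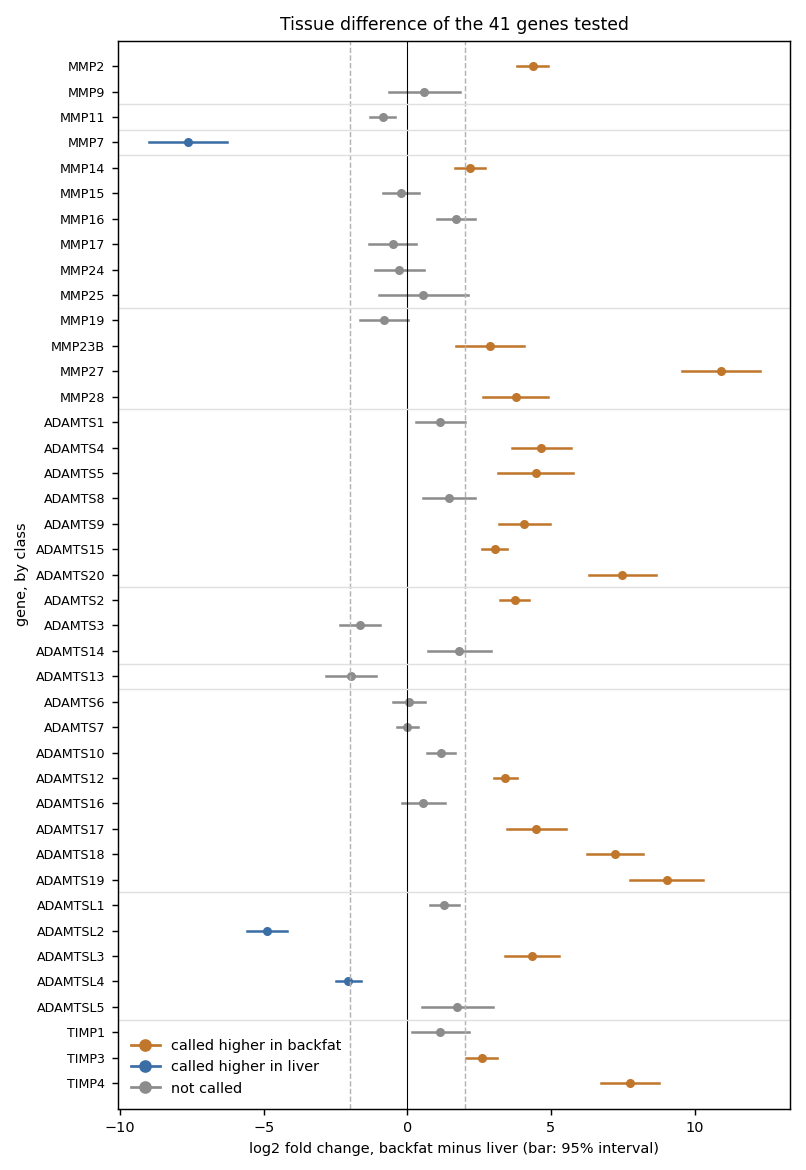
Log2 fold change (backfat minus liver) of the 41 members tested, with its 95% interval as a bar, ordered by class; dashed lines mark a log2 fold change of 2 in each direction. Of the 21 coloured members 18 lie to the right and 3 (MMP7, ADAMTSL2 and ADAMTSL4) to the left, and MMP27 lies farthest to the right at 10.92.

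Per length, the order of the members differed between the tissues. In backfat, MMP2 was highest at a mean of 188 RPKM, followed by TIMP3 at 85.6, MMP14 at 67.02 and MMP23B at 56.5. In liver, MMP11 at 53.6 RPKM and MMP19 at 49.4 led, followed by ADAMTSL2 at 17.2 and MMP7 at 16.9. MMP11 and MMP19 in liver overlapped in their spread (SD 12.9 and 27.3 RPKM, n = 5), as did ADAMTSL2 and MMP7 (SD 6.71 and 6.58). Summed over the 19 genes, the MMPs were at 403 ± 27.8 RPKM (SD, n = 5) in backfat and 161 ± 22.0 in liver, and the ADAMTS proteases at 104 ± 13.6 and 26.8 ± 6.16. The 3 TIMPs summed to 132 ± 14.9 and 29.4 ± 16.2 RPKM. The ADAMTS-like proteins ran the other way, at 15.4 ± 2.27 RPKM in backfat and 34.5 ± 5.10 in liver. In each of these 4 sums the libraries of the 2 tissues did not overlap.

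**Figure D2:**
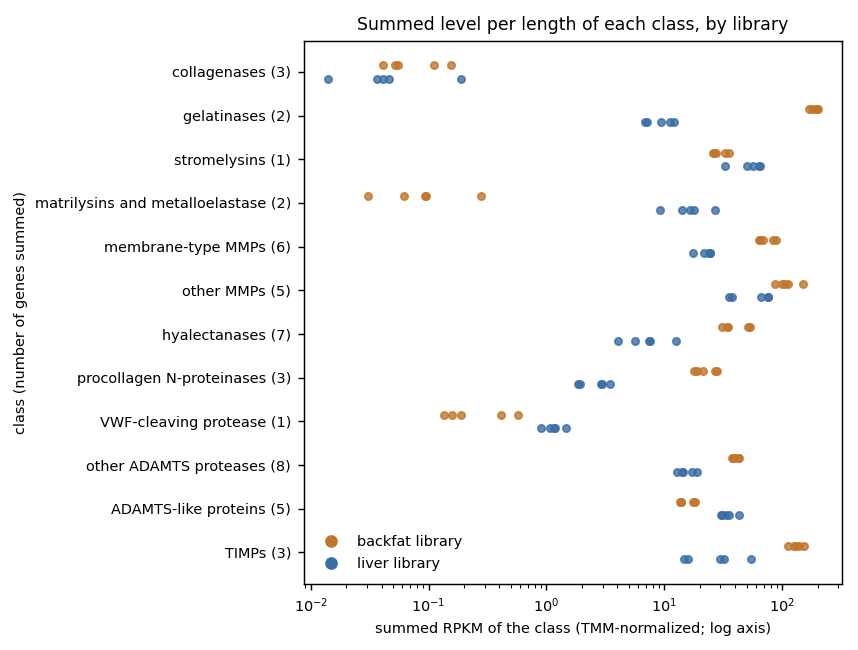
Summed RPKM (log axis) of each class of members, by library, with 5 backfat and 5 liver points per class and the number of genes summed in parentheses. Gelatinases, membrane-type MMPs, other MMPs, hyalectanases, procollagen N-proteinases, other ADAMTS proteases and TIMPs lie higher in backfat without overlap, the matrilysin class, the VWF-cleaving protease and the ADAMTS-like proteins lie higher in liver, and the collagenases and the stromelysin class (MMP11) overlap.

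Among the MMPs, 5 of 14 tested were called higher in backfat (MMP2, MMP14, MMP23B, MMP27 and MMP28), MMP7 was called higher in liver, and 8 were not called. The shares over all genes tested were 11.1% in backfat and 11.2% in liver. MMP2, the gelatinase that cuts denatured collagen and collagen IV (ENSSSCG00000002829), was at 679, 601, 628, 705 and 709.7 CPM in backfat 65, 67, 69, 71 and 72. The liver libraries had 24.99, 38.2, 23.8, 42.2 and 32.98 CPM. Every backfat library lay far above every liver library, and the spread within a tissue was small beside the gap. This gave a log2 fold change of 4.36 (SE 0.25) with an edgeR adjusted p of 3.24e-08. MMP2 alone made up 46.7% of the summed MMP RPKM in backfat and 5.93% in liver, where MMP11 made up 33.1% and MMP19 29.3%.

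MMP14, the membrane-type MMP that activates proMMP2 at the cell surface, was at 317, 357, 223, 258 and 236 CPM in backfat. Its liver values were 63.1, 34.4, 75.7, 61.9 and 71.4 CPM. The tissues did not overlap, and liver 67 was the lowest library. The fitted difference on the log2 scale was 2.18 (SE 0.24) with an edgeR adjusted p of 8.69e-06, and 2.0002 without liver 67. Tested against the fold threshold itself (edgeR's glmTreat), MMP14 was not called (adjusted p 0.442). Of the 6 membrane-type MMPs tested, it was the 1 called. MMP15 (21.2 CPM in backfat and 24.9 in liver), MMP17 (1.25 and 1.78), MMP24 (3.07 and 3.74) and MMP25 (3.27 and 2.23) did not pass the adjusted p, and their libraries overlapped. MMP16, the remaining membrane-type MMP, passed the adjusted p without reaching the fold threshold. The signs of the small differences of MMP15, MMP17 and MMP24 (log2 fold changes -0.23, -0.51 and -0.29) turned when scaled by library size alone.

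MMP23B, a short MMP anchored in the membrane, was at 84.3, 106, 87.6, 118 and 164 CPM in backfat. It stood at 4.64, 37.1, 4.27, 20.03 and 10.9 CPM in liver. The liver libraries ranged widely, with liver 67 highest, but none reached the lowest backfat library. Backfat minus liver, the log2 fold change was 2.87 (SE 0.54) with an edgeR adjusted p of 6.97e-04, and 3.46 without liver 67, and with glmTreat it was not called (adjusted p 0.105). MMP28 (epilysin) was at 29.1, 22.05, 66.98, 26.01 and 25.9 CPM in backfat. In liver it was at 1.07, 5.51, 1.47, 3.35 and 1.14 CPM. Backfat 69 was far above the other backfat libraries, and the tissues did not overlap. The log2 fold change was 3.77 (SE 0.52) with an edgeR adjusted p of 5.21e-05, and 3.37 without backfat 69.

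MMP7 and MMP27 were the MMPs with the largest difference in each direction. MMP7 (matrilysin), a small MMP without the hemopexin domain that most others carry (ENSSSCG00000014982), was at 0.0564, 0, 0.286, 0.108 and 0.0858 CPM in backfat. The liver libraries had 11.6, 34.2, 17.6, 22.5 and 20.7 CPM. All 5 liver libraries were high, liver 67 the highest, and backfat stood at a total of 33 counts over 5 libraries. This gave a log2 fold change of -7.65 (SE 0.63) with an edgeR adjusted p of 6.06e-07, and -8.40 without backfat 69, the backfat library with the most MMP7. Beside MMP7, the 4 cholangiocyte markers in the table (all called higher in liver) summed to 34.6 to 72.6 CPM in liver and 0.496 to 2.57 in backfat. The sum was highest in liver 67, as were KRT7 (44.7 CPM, against 7.68 to 15.2 in the other liver libraries), EPCAM (9.42) and SOX9 (9.61). CFTR was highest in liver 65 (13.4 CPM), where MMP7 was lowest. The hepatocyte markers summed to 27992 to 101637 CPM in liver and 171 to 574 in backfat. The part of these cell types in the MMP7 difference was not tested.

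MMP27 (ENSSSCG00000014984) was at 15.2, 31.2, 19.7, 18.7 and 40.2 CPM in backfat. In liver 71 it was at 0.0632 CPM, and the other 4 liver libraries had no count. It was read 7943 times in backfat and 2 times in liver, a ratio of 2338 per normalized library size with a 95% interval from 647 to 19308 that covers counting error only. The fitted log2 fold change was 10.92 (SE 0.62) with an edgeR adjusted p of 3.40e-08, and 13.40 without liver 71, and it depends on the prior count.

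MMP11 (stromelysin 3, which is activated inside the cell by furin) was at 73.9 ± 10.7 CPM (SD, n = 5) in backfat and 133 ± 32.1 in liver. It passed the adjusted p (edgeR, 0.00318) with a log2 fold change of -0.85 (SE 0.20), under the fold threshold, and liver 67 at 81.6 CPM lay within the range of backfat. Scaled by library size alone, its adjusted p was 0.653. MMP19 was at 42.8 ± 10.9 CPM in backfat and 75.1 ± 41.6 in liver. Its log2 fold change of -0.81 (SE 0.39) did not pass (edgeR adjusted p 0.096), but without liver 67, the lowest liver library at 22.4 CPM, it was -1.07 with an adjusted p of 0.00848. Liver 71 at 39.2 CPM also lay within the range of backfat (28.2 to 56.3 CPM). The gelatinase MMP9 averaged under 1 CPM in liver and did not pass. MMP1, MMP8, MMP12, MMP13 and MMP20 had at most 55 counts over all 10 libraries and were not tested. The 3 collagenases among them (MMP1, MMP8 and MMP13), which cut intact fibrillar collagen, summed to at most 0.190 RPKM in any library.

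**Figure D3:**
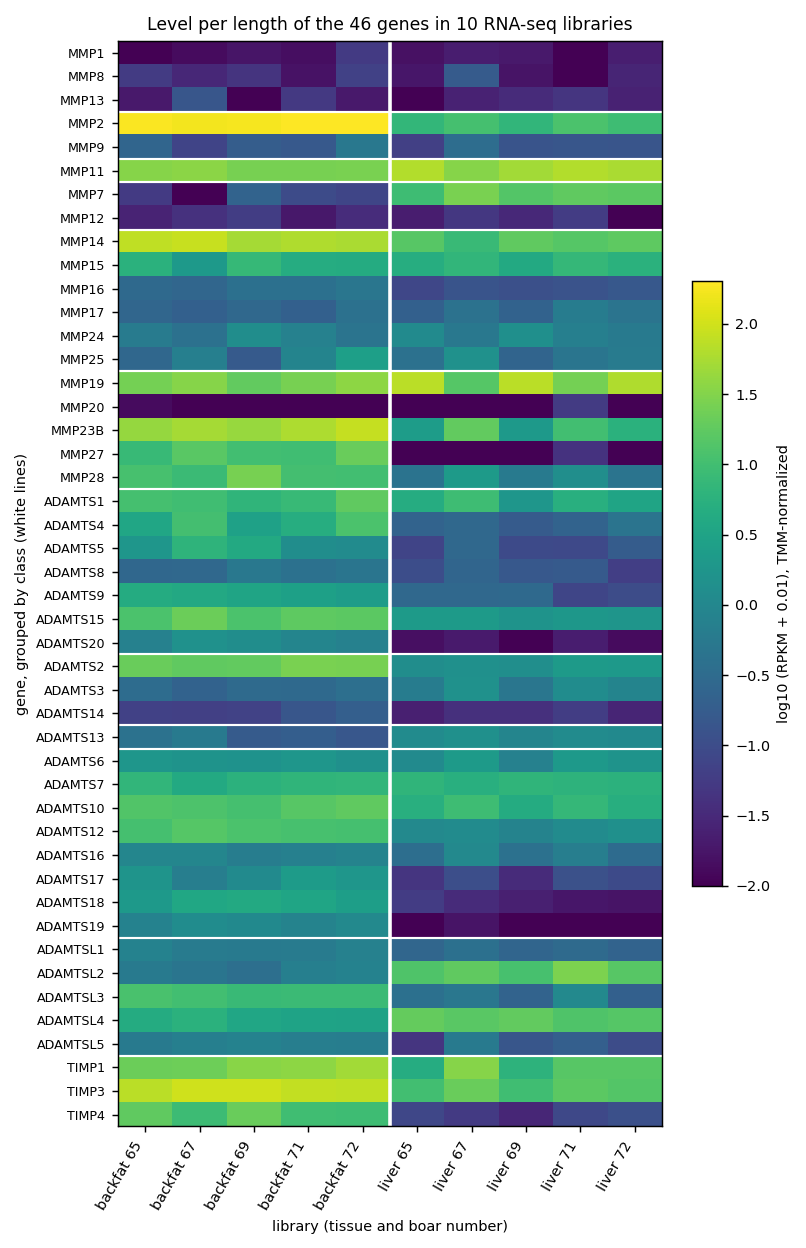
Level per length of all 46 members in the 10 libraries, as log10 of RPKM plus 0.01, with white lines between classes and between the tissues. MMP2, MMP14, TIMP3 and most hyalectanases are brighter in the 5 backfat columns, MMP7, ADAMTSL2 and ADAMTSL4 in the 5 liver columns, and the collagenases and MMP20 are dark in all.

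MMP7 and MMP27 lie in a group of 7 members that spans 402.1 kb of chromosome 9. The order of these members is MMP7, MMP20, MMP27, MMP8, MMP1, MMP12 and MMP13, all on the minus strand. Genes not analysed here were not placed in this order. MMP7 (chr9:33214590-33225080) and MMP27 (chr9:33366342-33379828) are 141.3 kb apart with the member MMP20 between them, and the other 5 members of the group were those not tested. In liver MMP7 was at 16.9 RPKM and MMP27 at 0.00650, and in backfat they were at 0.0853 and 12.9. The 250 bases before the RefSeq start of MMP7, the member with the largest difference towards liver, are given to show its upstream region (chr9:33225081-33225330, read on the minus strand), with matches to TATAAA on either strand in capitals.
MMP7, upstream window: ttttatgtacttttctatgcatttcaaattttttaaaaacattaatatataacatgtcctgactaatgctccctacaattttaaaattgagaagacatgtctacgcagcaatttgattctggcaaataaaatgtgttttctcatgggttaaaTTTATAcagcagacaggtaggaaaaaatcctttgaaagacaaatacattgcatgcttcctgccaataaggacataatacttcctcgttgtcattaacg

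The window holds 1 such match, on the reverse strand. TATAAA stood in the windows of 8 of 46 members and in 9.77% of 19556 windows of the same length before RefSeq genes. The letters TGANTCA (N for any base) are wider than the core to which AP-1 factors bind, TGAGTCA or TGACTCA. They stood in 5 of 46 members (MMP9, MMP12, MMP19, MMP20 and TIMP4) and in 5.27% of all windows. In MMP20 and TIMP4 the match was TGAATCA, which is not that core. These are matches of letters and no measure of binding.

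**Figure D4:**
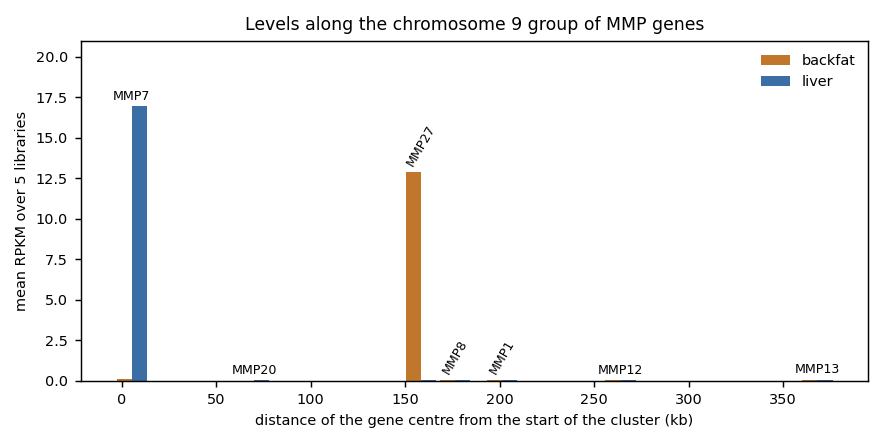
Mean RPKM over 5 libraries per tissue of the 7 members grouped on chromosome 9, against the distance of the gene's centre from the start of the group in kb. The liver bar of MMP7 (16.9) and the backfat bar of MMP27 (12.9) stand out, and the bars of the other 5 genes are near 0 in both tissues.

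Among the ADAMTS proteases, 10 of 19 were called higher in backfat, none was called higher in liver, and 9 were not called. The shares over all genes tested were 11.1% in backfat and 11.2% in liver. At the adjusted p alone 14 were higher in backfat and 2 (ADAMTS3 and ADAMTS13) higher in liver, against 28.0% and 27.0% of all genes tested. By role, 5 of 7 hyalectanases, 1 of 3 procollagen N-proteinases and 4 of 8 other ADAMTS proteases were called higher in backfat. All 7 hyalectanases passed the adjusted p, with log2 fold changes from 1.15 to 7.48.

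ADAMTS2, which removes the N-propeptide of procollagens (ENSSSCG00000024043), had the highest level per length of the family in backfat. It was at 143, 119.7, 126, 188 and 179.9 CPM in backfat. Its liver values were 8.75, 9.77, 9.003, 14.8 and 14.2 CPM. All backfat libraries were far above all liver libraries. The fitted difference on the log2 scale was 3.74 (SE 0.23) with an edgeR adjusted p of 6.40e-08. ADAMTS3, a procollagen N-proteinase that also processes VEGF-C, was at 2.28 ± 0.440 CPM (SD, n = 5) in backfat and 7.18 ± 3.14 in liver, without overlap. Its log2 fold change of -1.65 (SE 0.32) passed the adjusted p (edgeR, 7.92e-04) but not the fold threshold. The third of this class, ADAMTS14, was under 1 CPM on average in both tissues and passed the adjusted p in the direction of backfat, and without liver 71 its log2 fold change was 2.09 in place of 1.80.

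Of the hyalectanases, which cut versican and aggrecan, ADAMTS15 was at 70.6, 126, 70.8, 99.3 and 96.98 CPM in backfat. It stood at 12.8, 12.8, 9.36, 11.03 and 10.3 CPM in liver. The liver libraries lay close together, and all were far below backfat. Backfat minus liver, the log2 fold change was 3.04 (SE 0.20) with an edgeR adjusted p of 1.08e-07. ADAMTS4 was at 12.96, 38.1, 10.9, 17.7 and 45.6 CPM in backfat. In liver it was at 0.823, 1.03, 0.616, 0.853 and 1.63 CPM. Backfat 67 and 72 were the high libraries, and no liver library came near the lowest of backfat. The log2 fold change was 4.66 (SE 0.47) with an edgeR adjusted p of 4.07e-06. ADAMTS9 was at 52.2, 47.4, 38.3, 32.4 and 28.6 CPM in backfat. The liver libraries had 3.27, 3.29, 3.33, 0.821 and 1.06 CPM. Liver 71 and 72 were lowest, and the tissues were far apart. This gave a log2 fold change of 4.07 (SE 0.41) with an edgeR adjusted p of 3.80e-06. ADAMTS1 was at 53.4 ± 22.4 CPM (SD, n = 5) and 24.00 ± 14.04 CPM, with overlap. Its log2 fold change of 1.15 (SE 0.39) passed the adjusted p (edgeR, 0.0245) but not the fold threshold, and the adjusted p was 0.0707 without backfat 72 and 0.0695 without liver 72. ADAMTS1 and ADAMTS5 lie 67.1 kb apart on chromosome 13, and ADAMTS8 and ADAMTS15 14.4 kb apart on chromosome 9.

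ADAMTS12, which can cut cartilage oligomeric matrix protein (COMP), was at 96.8, 131, 109.8, 101.2 and 97.4 CPM in backfat. Its liver values were 9.48, 10.6, 7.37, 10.4 and 12.6 CPM. Values were even within each tissue and far apart between them. The fitted difference on the log2 scale was 3.41 (SE 0.18) with an edgeR adjusted p of 2.23e-08. ADAMTS7, its closest relative and likewise a COMP-cutting enzyme, was at 32.9 ± 6.24 CPM in backfat and 32.8 ± 2.81 in liver (SD, n = 5), a log2 fold change of 0.00 (SE 0.16) with a 95% interval from -0.35 to 0.35. ADAMTS18 was at 16.6, 28.6, 31.8, 25.6 and 19.9 CPM in backfat. It stood at 0.374, 0.189, 0.106, 0.0632 and 0.0542 CPM in liver. Liver 65 was the highest liver library, still far below backfat. Backfat minus liver, the log2 fold change was 7.24 (SE 0.45) with an edgeR adjusted p of 6.09e-08, and 7.85 without liver 65.

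The other 4 ADAMTS proteases called higher in backfat were ADAMTS5 and ADAMTS20 (hyalectanases), ADAMTS17 and ADAMTS19, with log2 fold changes from 4.47 to 9.03. ADAMTS19 was read 1289 times in backfat and 1 time in liver, a ratio of 759 with a 95% interval from 136 to 29993 for counting error only. Its fitted log2 fold change of 9.03 was 10.73 without liver 67, the 1 liver library with a read. Among the uncalled ADAMTS proteases, ADAMTS10, which acts on fibrillin microfibrils, was at 63.1 ± 12.2 CPM in backfat and 28.04 ± 8.90 in liver without overlap (log2 fold change 1.17, edgeR adjusted p 6.87e-04). ADAMTS6 (15.1 and 14.4 CPM) and ADAMTS16 (3.79 and 2.58 CPM) did not pass, and without liver 67 the log2 fold change of ADAMTS16 was 0.89 with an adjusted p of 0.0204. Exons of ADAMTS6 and ADAMTS7 overlap those of CENPK and TBC1D2B in RefSeq, and exons of MMP16, MMP28, ADAMTS1, ADAMTS9, ADAMTS14 and ADAMTS19 overlap those of genes without a symbol, so that reads shared with them could not be assigned with certainty.

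ADAMTS13, the protease that cuts VWF in plasma and is known to be made in liver, was at 2.81, 3.88, 1.08, 1.26 and 0.909 CPM in backfat. In liver it was at 7.93, 9.86, 6.12, 7.87 and 7.24 CPM. All liver libraries lay above all backfat libraries, with backfat 67 nearest to liver. The log2 fold change was -1.97 (SE 0.40) with an edgeR adjusted p of 0.00113, just short of the fold threshold and so not called. It was past the threshold with the boar as a block (-2.18), without backfat 65 (-2.12), backfat 67 (-2.35), liver 69 (-2.05) or liver 72 (-2.03), and also with DESeq2 size factors (-2.01), with limma-voom (-2.14) and without mitochondrial genes (-2.003). Hepatic stellate cells are known to make ADAMTS13, and of the 6 markers of these cells 3 were called higher in liver and 1 in backfat. Those called in liver were LRAT (5.59 CPM on average in liver and 0.150 in backfat), HAND2 (17.9 and 0.0371) and RELN (42.4 and 6.37). RGS5 was called in backfat (19.9 and 186), and PDGFRB (84.4 and 255) and DES (32.9 and 16.7) were not called. The sum of the 6 was 134 to 261 CPM in liver and 387 to 605 in backfat, where PDGFRB and RGS5 were the largest parts. The part of these cells in this result was not tested. Exons of ADAMTS13 overlap those of CACFD1 and SLC2A6 in RefSeq, so reads there could not be assigned with certainty.

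The ADAMTS-like proteins, which are secreted and bind fibrillin microfibrils or other matrix, split between the tissues. ADAMTSL3 was called higher in backfat, ADAMTSL2 and ADAMTSL4 higher in liver, and 2 of 5 were not called. The shares over all genes tested were 11.1% in backfat and 11.2% in liver. ADAMTSL2 (ENSSSCG00000026425), which binds fibrillin and the latent TGF-beta binding protein, was at 3.41, 2.64, 2.14, 4.13 and 4.61 CPM in backfat. The liver libraries had 77.2, 106, 64.4, 165 and 90.5 CPM. Liver 71 was highest, and every liver library was more than 10 times every backfat library. This gave a log2 fold change of -4.89 (SE 0.32) with an edgeR adjusted p of 1.07e-07. Its gene lies 52.9 kb from ADAMTS13 on chromosome 1, and both were higher in liver at the adjusted p.

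ADAMTSL4, which binds fibrillin 1, was at 25.6, 32.5, 20.6, 18.3 and 17.2 CPM in backfat. Its liver values were 113, 92.05, 108, 75.3 and 85.1 CPM. The tissues did not overlap. The fitted difference on the log2 scale was -2.05 (SE 0.21) with an edgeR adjusted p of 3.82e-06. It lay close to the fold threshold, and was -1.97 without backfat 71, -1.96 without backfat 72 and -1.97 without liver 65, each of which ended the call. Scaling by library size alone (-1.34), keeping all low counts (-1.99) and glmTreat (adjusted p 0.858) ended it too. ADAMTSL3 was at 95.3, 80.9, 66.7, 69.2 and 69.1 CPM in backfat. It stood at 3.02, 4.05, 1.83, 8.50 and 1.57 CPM in liver. Liver 71 was the highest liver library, and backfat was above all of them. Backfat minus liver, the log2 fold change was 4.34 (SE 0.43) with an edgeR adjusted p of 3.32e-06. ADAMTSL3 made up 61.7% of the summed ADAMTS-like RPKM in backfat, and ADAMTSL2 and ADAMTSL4 48.7% and 48.6% in liver. ADAMTSL1 was at 5.52 ± 0.820 CPM (SD, n = 5) in backfat and 2.27 ± 0.469 in liver, with a log2 fold change of 1.28 that passed the adjusted p (edgeR, 4.55e-04) but not the fold threshold. The remaining member, ADAMTSL5, passed the adjusted p at a log2 fold change of 1.74 and was called without liver 67 (2.57) and with the boar as a block (2.25). Without liver 72 its edgeR adjusted p was 0.0532.

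Of the TIMPs, 2 of 3 were called higher in backfat, against 11.1% of all genes tested. TIMP3, which is bound to the matrix and inhibits ADAM and ADAMTS proteases as well as MMPs, was at 332, 453, 447, 371 and 363 CPM in backfat. In liver it was at 45.8, 97.3, 44.3, 76.4 and 64.7 CPM. Every backfat library was more than 3 times every liver library. The log2 fold change was 2.58 (SE 0.25) with an edgeR adjusted p of 3.16e-06. Of the summed RPKM of TIMP1, TIMP3 and TIMP4, without TIMP2, TIMP3 made up 64.8% in backfat and 53.4% in liver. TIMP4 (ENSSSCG00000033000) was at 100.6, 48.8, 116, 53.6 and 50.7 CPM in backfat. The liver libraries had 0.399, 0.243, 0.106, 0.411 and 0.570 CPM. Backfat 65 and 69 were the high backfat libraries, and liver was near 0 throughout. This gave a log2 fold change of 7.76 (SE 0.46) with an edgeR adjusted p of 4.62e-08. Exons of SYN2 overlap TIMP4 in RefSeq.

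TIMP1, a secreted inhibitor of most MMPs, was at 22.9, 23.6, 36.1, 38.4 and 52.2 CPM in backfat. Its liver values were 4.79, 34.6, 6.37, 15.96 and 16.1 CPM. Liver 67 lay within the range of backfat, and the other 4 liver libraries lay below all backfat libraries. The fitted difference on the log2 scale was 1.15 (SE 0.46) with an edgeR adjusted p of 0.0509, so TIMP1 did not pass. Without liver 67 it was 1.64 with an adjusted p of 0.00411, with the boar as a block 1.47 with 0.0158, and without backfat 65 1.28 with 0.0485, in each case under the fold threshold.

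**Figure D5:**
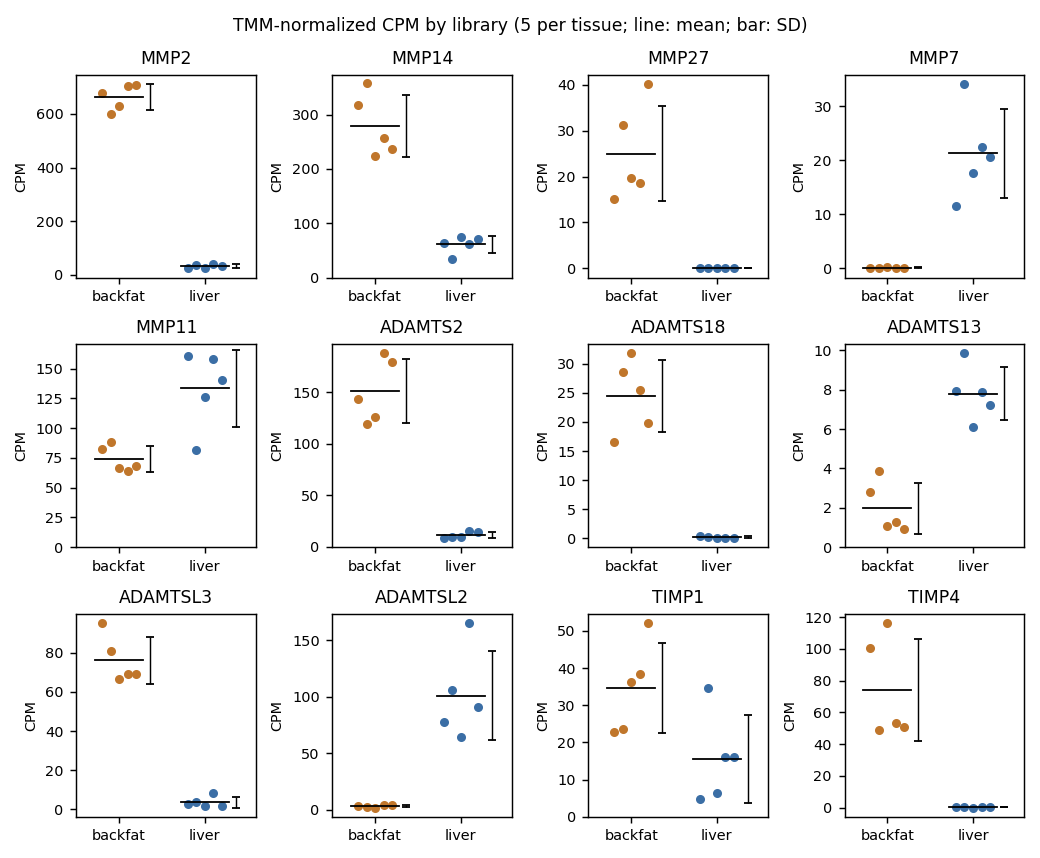
CPM by library of 12 members in backfat and liver, with 5 points per tissue, the mean as a line and the SD as a bar at its side; each panel has its own scale from 0. Liver 67 is the TIMP1 point at 34.6 CPM among the backfat values, MMP2, MMP14, ADAMTS2, ADAMTS18, ADAMTSL3, MMP27 and TIMP4 are higher in all 5 backfat points, and MMP7, ADAMTS13 and ADAMTSL2 in all 5 liver points.

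Beside the 18 members called higher in backfat, the 6 fibroblast markers (PDGFRA, DCN, LUM, COL1A1, COL1A2 and COL3A1, all called higher in backfat and none at 0 in either tissue) summed to 46185 to 84623 CPM in backfat and 755 to 1285 in liver. The 6 adipocyte markers summed to 9353 to 12919 and 10.98 to 15.7 CPM, and the 5 endothelial markers in the table, 3 of them called, to 1011 to 1453 and 258 to 603 CPM, liver 67 being the highest of liver. Their part in these results was not tested.

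The other genes of the pathway were taken from 6 lists, in which 57 of 62 genes were in the table and 54 were tested. Of these, 21 were called higher in backfat, 11 higher in liver and 22 were not called. Over all genes tested, 11.1% were called higher in backfat and 11.2% in liver. The proteases that open prodomains and the plasminogen system ran mostly towards liver, with 6 of 10 called there and 2 in backfat. Plasminogen (PLG) was at 2631 ± 1143 CPM (SD, n = 5) in liver and 0.868 ± 1.65 in backfat (log2 fold change -11.57). The backfat mean rested on backfat 69, at 3.82 CPM against 0.0343 to 0.270 in the other 4, and without it the log2 fold change was -14.29. Plasma kallikrein (KLKB1, -9.44) and hepsin (HPN, -7.86) followed. In backfat the plasminogen activators PLAT (3.60) and PLAU (2.35) were called, at 35.9 and 27.7 CPM on average. PLAU was 1.95 without backfat 72, under the fold threshold. FURIN, among the 6 called in liver, lay at -2.03 and was under the threshold without backfat 69 (-1.97), backfat 71 (-1.95), liver 69 (-1.94) or liver 72 (-1.94).

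Of the other inhibitors and clearance genes tested, 3 of 12 were called higher in backfat and 2 higher in liver. For this list and those below, the shares over all genes tested were 11.1% in backfat and 11.2% in liver. Those in backfat included SPOCK1 (log2 fold change 4.003) and PCOLCE (3.02), an enhancer of procollagen C-proteinase that stands in this list as a matrix regulator. Those in liver were the plasma inhibitors SERPINF2 (-10.34), which blocks plasmin, and A2M (-9.78), which traps proteases of many kinds. RECK, the membrane-anchored MMP inhibitor, had a log2 fold change of 1.69 (SE 0.26), which passed the adjusted p (edgeR, 1.33e-04) but not the fold threshold. Of the 5 inducers and docking proteins tested, the tetraspanin CD151 (2.81) was called higher in backfat and syndecan 1 (SDC1, -3.43) higher in liver.

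Of the procollagen C-proteinases, which remove the other propeptide, TLL1 (4.17) was the 1 of 3 called, in backfat, and BMP1 passed the adjusted p (edgeR, 7.93e-04) at a log2 fold change of 1.13 (SE 0.22). Among the ADAM proteases, relatives that shed proteins from the cell surface, 4 of 9 were called higher in backfat, led by ADAM12 (4.10), ADAM33 (3.22) and ADAM15 (2.25), and none in liver. Liver 67 was the high liver library of both ADAM33 (11.4 CPM against 1.12 to 2.75) and ADAM15 (71.2 against 13.7 to 19.2), and without it their log2 fold changes were 4.13 and 2.95. Of the substrates, 10 of 15 tested were called higher in backfat and 2 higher in liver, against 11.1% and 11.2% of all genes tested. Fibrillin 2 (FBN2, 6.45), COL3A1 (6.16) and COL1A2 (5.85) led in backfat, and COMP (-3.56) and fibronectin (FN1, -2.45) were the 2 called in liver. COMP was at 2.79 CPM in backfat 69 against 0.107 to 1.36 in the other backfat libraries, and at -4.21 without it. In all, 3 uncalled genes of the lists were called without 1 library, COL2A1 (3.05) and SPOCK2 (2.02) without liver 67 and LRP2 (3.44) without liver 72. Versican (VCAN), the main substrate of the hyalectanases in soft tissue, was at 109 ± 11.4 CPM (SD, n = 5) in backfat and 6.59 ± 1.31 in liver, a log2 fold change of 4.04 (SE 0.18). COL1A1, COL1A2, COL3A1 and DCN stand both in this list and among the fibroblast markers.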

How the data were processed

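Backfat and liver of 5 boars were sequenced as RNA, 5 libraries per tissue. The authors checked reads with FastQC, trimmed them with Trimmomatic, aligned them with HISAT2 and counted them per gene with featureCounts 2.0.1 against Ensembl release 99 of Sscrofa11.1, and the deposited values are raw counts, without normalization or pooling. The counting took no account of strand. Genes were filtered by filterByExpr, normalized by TMM and tested over all 16275 remaining genes by edgeR 4.0.16's quasi-likelihood test (R 4.3.3) with tissue as the only term. Standard errors are the size of the fold change (log2) divided by the root of F, and adjusted p-values are Benjamini-Hochberg. RPKM were calculated from normalized CPM and the exon length of the count table.

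The members and the gene lists were chosen with earlier results of these data known. The genes described were all TIMPs, all members called higher in liver, the 6 with the highest RPKM in backfat of those called there in each family, uncalled members of at least 1 CPM in both tissues, and the 3 called genes of largest change per direction of each pathway list. MMP9, MMP16, ADAMTS5, ADAMTS8, ADAMTS14, ADAMTS17, ADAMTS19, ADAMTS20, ADAMTSL5, RECK, FURIN, BMP1, LRP2, SPOCK2, COL2A1 and VCAN were named after their values were seen. A gene and a sequence that this selection covers are not reported here.

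Boar numbers come from the column names, since the replicate numbers of the labels could not be matched to columns. Same-numbered libraries come from the same animal by these names, and the correlations of their deviations from the tissue means were 0.220, 0.0918, 0.0270, 0.171 and 0.126 for boars 65, 67, 69, 71 and 72. Between a backfat and a liver library of different boars these correlations ran from -0.243 to 0.159. The main fit does not use this pairing. A model with the boar as a block was an alternative, as were DESeq2 1.42.0, limma 3.58.1 (voom), other normalizations and filters, and leaving out libraries. Intervals of count ratios cover counting error only. Methylation calls carry no genomic position and were not used here. Sequences and positions are from RefSeq on Sscrofa11.1, read with pysam 0.24.0, and all 46 members matched by symbol.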

Additional observations from a re-analysis of the deposited data

Results flagged for a closer look

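In each tissue the highest and the lowest library of each tested member were compared with the other 4. In 6 of 82 such groups 1 library lay far from the rest, with a gap to its nearest neighbour over 0.71 of the range of all 5. For normally distributed values chance gives this in about 1 of 20 groups, but CPM are bounded at 0 and need not be normal. In 2 of the 6, however, the other 4 libraries had no read, which fixes the result by construction. These were MMP27 in liver 71 (0.0632 CPM, from 2 reads) and ADAMTS19 in liver 67 (0.0270 CPM, from 1 read), both tested because of their backfat counts. Of the remaining 4, 2 were in liver 67. It held MMP9 at 1.78 CPM, against 0.299 to 0.695 in the other liver libraries, and ADAMTSL5 at 2.40 CPM, against 0.150 to 0.790. It was also the library with 44.5% mitochondrial counts, with summed neutrophil markers at 16.4 CPM against 2.25 to 5.29 in the other liver libraries, and their part in these values was not tested. In backfat 72 MMP25 was at 9.42 CPM, against 0.538 to 2.99 in the other backfat libraries. In backfat 69 MMP28 was at 66.98 CPM, against 22.0 to 29.1.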

How the results depend on the processing

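The count of members called higher in backfat (18) was between 12 and 25 over all alternatives, and that of members called higher in liver (3) between 2 and 6, the 6 being at the adjusted p alone. With at least 10 counts in every library 31 members were tested and 12 and 2 called, since that filter removes genes that are absent from 1 tissue, and over all genes 871 were called higher in backfat and 981 in liver in place of 1814 and 1819. At the adjusted p alone these were 4557 and 4398. Testing against the fold threshold itself (glmTreat) gave 16 and 2, without MMP14, MMP23B and ADAMTSL4, DESeq2 18 and 3, and limma-voom 19 and 4. With each library left out in turn the counts were 18 to 19 and 2 to 4, and without backfat 69 and liver 67 together 19 and 3. With the boar as a replicate block they were 19 and 4, where ADAMTS13 (-2.18) and ADAMTSL5 (2.25) were added, and TIMP1 passed the adjusted p, as it did with DESeq2 (0.0368) and limma-voom (0.0124). The block changed no other call of a member. Of the pathway genes, 18 to 28 were called higher in backfat and 8 to 11 in liver over a part of the alternatives. That part held DESeq2 size factors, library size alone, DESeq2, at least 10 counts in every library, the block and each library left out. With the block 22 and 10 were called. At the adjusted p alone 31 of the 54 pathway genes tested were higher in backfat and 12 in liver, against 28.0% and 27.0% of all genes tested. Scaling by library size alone moved the all-gene median on the log2 scale to 0.71 and the liver share of calls from 50.1% to 31.8%, and gave 23 and 2 members. Under it MMP15 (0.51), MMP17 (0.26) and MMP24 (0.36) changed sign, none of them past the fold threshold, and MMP16, ADAMTS8, ADAMTS14, ADAMTSL1 and ADAMTSL5 were called. Under it MMP9 (1.33, adjusted p 0.0462), ADAMTS6 (0.84, 0.00658), ADAMTS7 (0.70, 0.00795), ADAMTS16 (1.34, 0.00368) and TIMP1 (1.92, 0.00118) passed the adjusted p, and MMP11 (-0.13, 0.653) did not. MMP25 was -0.36 without backfat 72, in a range from -0.36 to 1.14 over the libraries left out, and ADAMTS6 ranged from -0.11 to 0.19. ADAMTS7 turned to -0.0335 with DESeq2 size factors, -0.0157 with DESeq2, -0.0207 with limma-voom, -0.0085 with at least 10 counts, -0.0181 with the block, -0.0372 without the 2 libraries and -0.0351 without mitochondrial genes, and ranged from -0.0803 to 0.120 over the libraries left out. The cause of these changes was not tested. Members under 1 CPM are limited by depth, as are folds against a tissue with 1 or 2 reads.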
